A study of Rattus norvegicus with 6 samples.

Results

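Enzymes that make NAD and use nicotinamide were examined in the livers of male Sprague-Dawley (Crl:CD(SD)) rats as a set of 10 genes: Qprt, Naprt, Nmnat1, Nmnat3, Nadsyn1, Nampt, Nmrk1, Nnmt, Nadk and Nnt. The set was chosen by function, and its members were found through the accession of each array probe, which gave 13 of the 61657 non-control probes. Of the 10 genes, 9 were measured, and all 13 probes were well above background on all 6 arrays. No probe was matched to Nmnat3, which is not analysed here. The rats were 5 weeks old when bought and ate a basal diet. The 3 controls received corn oil, and the other 3 rats received o-anthranilic acid at 1000 mg/kg/day. The treatment protocol puts the dosing at 9 weeks and the series design puts the measurement at 28 days, so the duration is not settled. Total liver RNA of each rat was labelled with Cy3 and hybridised to a single-colour Agilent array of its own. Whole liver RNA mixes the cell types of the organ, so fewer cells of a type and less RNA per cell cannot be told apart in any value below.

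NAD carries electrons in energy metabolism and is split by sirtuins, poly-ADP-ribose polymerases and related enzymes, which release nicotinamide. Liver makes NAD from tryptophan through kynurenine and quinolinic acid (the de novo route), from nicotinic acid (the Preiss-Handler route), and from nicotinamide or its riboside (the salvage routes). Anthranilic acid is itself a product of tryptophan breakdown, released from kynurenine by kynureninase. The comparison asked how repeated dosing with it changed these transcripts.

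Across the set, the test called no gene. Among the 9 measured genes, 0 passed limma at a Benjamini-Hochberg adjusted p under 0.05, against 0% of the 10257 genes with a tested probe, and 1 of the 9 (Qprt, lower) had an unadjusted p under 0.05, against 11.6% of all genes (6.15% lower and 5.47% higher). The median difference was 0.047 on the log2 scale over the 9 genes and 0.0085 over all genes. Of the 9 genes, 3 were below 0 and 6 above. The treated and control rats did not overlap for 1 of the 9 genes, again Qprt, against 19.8% of all genes (9.13% with treated rats lower), so the share of such genes in the set was not above the background.

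Over all probes, 11 of 33428 (0.0329%) passed, 8 lower and 3 higher in treated livers. Signal well above background was found for 53.3% to 58.0% of the probes of an array, no spot was saturated, and pairs of arrays correlated across probes at r = 0.987 to 0.992 within a group and 0.984 to 0.989 between groups. The hepatocyte markers (Alb, Ttr, Apoa1, Tf and 6 others) were well above background on all arrays. Treated replicate 3 lay on slide 2 and was scanned apart from the other 5 arrays, which shared slide 1.

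Of the 10 genes, 6 had an entry in RefSeq's table of promoters (build GRCr8). The 250 bases before the transcript start are shown for the final steps of the de novo route, because the first of these genes, Qprt, is the member that separated the groups and Nmnat1 and Nadsyn1 are the steps that follow it. CG dinucleotides are in capitals.
Qprt (chr1:191164007-191164256, strand -): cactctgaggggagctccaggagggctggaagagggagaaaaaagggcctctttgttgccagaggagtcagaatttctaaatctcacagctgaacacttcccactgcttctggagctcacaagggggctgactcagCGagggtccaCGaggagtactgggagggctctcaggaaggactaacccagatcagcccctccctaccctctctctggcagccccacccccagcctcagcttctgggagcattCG
Nmnat1 (chr5:165211214-165211463, strand -): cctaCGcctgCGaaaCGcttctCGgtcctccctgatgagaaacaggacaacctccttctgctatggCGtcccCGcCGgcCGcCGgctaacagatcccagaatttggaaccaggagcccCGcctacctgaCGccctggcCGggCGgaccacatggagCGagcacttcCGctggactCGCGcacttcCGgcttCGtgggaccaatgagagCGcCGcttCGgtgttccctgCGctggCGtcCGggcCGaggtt
Nadsyn1 (chr1:208439208-208439457, strand -): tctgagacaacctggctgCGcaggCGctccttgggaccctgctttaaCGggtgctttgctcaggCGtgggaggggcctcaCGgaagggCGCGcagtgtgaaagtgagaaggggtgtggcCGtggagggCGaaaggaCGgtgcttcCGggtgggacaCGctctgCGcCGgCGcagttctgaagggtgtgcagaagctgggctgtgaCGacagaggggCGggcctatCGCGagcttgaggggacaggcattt
The Qprt window held 3 CG dinucleotides, against a median of 5 over the 33469 promoters of the table. The Nmnat1 window held 26, more than 91.4% of promoters, and that of Nadsyn1 held 19, more than 81.6%. The windows of Nmnat3, Nmrk1 and Nnt held 16, 17 and 19. None of the 6 windows contained TATAAA on either strand, a string found in 12.9% of all promoters. CCAAT, found in 34.0% of promoters, stood in the windows of Nmnat1, Nmrk1 and Nnt, and GGGCGG, found in 30.5%, in those of Nmnat1, Nmnat3 and Nadsyn1. Each string was searched on both strands. These matches describe the letters of the windows, and the arrays do not measure what binds there.

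Qprt encodes quinolinate phosphoribosyltransferase, which turns quinolinic acid into nicotinic acid mononucleotide and so admits the tryptophan route to NAD. Signals are given as a ratio to the 75th percentile of the array. Qprt stood at 24.6, 26.3 and 27.2 in the 3 corn oil rats and at 18.6, 20.8 and 20.3 in the 3 treated rats. Every treated value lay below every control value, and the spread inside each group was small: 26.0 ± 1.32 (SD, n = 3) in controls and 19.9 ± 1.13 (SD, n = 3) in treated rats. The difference was -0.39 on the log2 scale (SE 0.09, 95% interval -0.60 to -0.17), which is a treated level of 0.764 of the control level. It did not pass over all probes (limma adjusted p = 0.243, from 0.157 to 0.553 over the alternatives). Without adjustment the limma p was 0.00439, and 182 of the 10257 genes (1.77%) had a smaller one. Qprt had 1 probe, so no second probe checks this value.

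The Qprt difference kept its sign and stayed on the same side of the threshold in all 17 alternative settings, and ran from -0.45 with quantile scaling to -0.34 without treated replicate 1. Not all of these settings could move it. Changes of the filter, the replicate block or the variance model left it at -0.39 by construction. So did the mean over probes, as Qprt had 1 probe. Within slide 1, which is also the fit with slide as a block, the Qprt difference was -0.40 (limma adjusted p = 0.343). Of the 10 hepatocyte markers, 7 were below 0, 5 of them with groups that did not overlap, against 9.13% of all genes. Their summed signal stood at 4881, 4712 and 4746 in controls and at 4628, 4491 and 4408 in treated rats, each in order of replicate. Their median difference was -0.072. The part of the hepatocyte markers in the Qprt value was not tested.

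**Figure D1:**
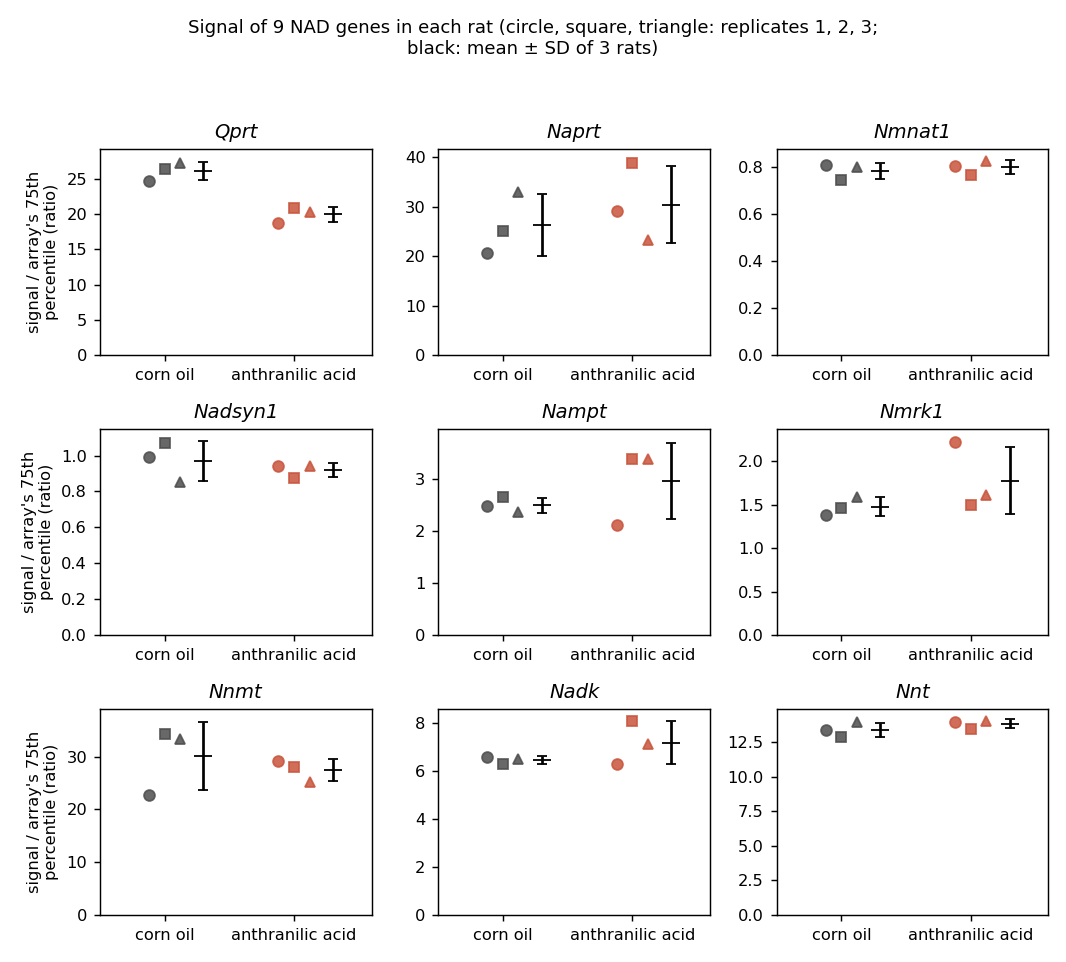
Signal of each of the 9 measured genes in each rat, as a ratio to the array's 75th percentile (vertical axis, from 0), for corn oil and anthranilic acid; circles, squares and triangles are replicates 1, 2 and 3, and black bars are the mean ± SD of 3 rats. Only in the Qprt panel do the treated rats (18.6 to 20.8) all lie apart from the controls (24.6 to 27.2).

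The enzymes downstream of Qprt were close to their control level. Nmnat1, the nuclear adenylyltransferase that joins the mononucleotide to ATP in every route to NAD, stood at 0.808, 0.746 and 0.802 in controls and at 0.807, 0.767 and 0.828 in treated rats. The ranges of the 2 groups overlapped. Its difference was 0.029 (SE 0.08, limma adjusted p = 0.910), and the 95% interval put the treated level between 0.887 and 1.17 of the control level. Nmnat1 varied little between rats of a group, with a within-group SD of 0.060 on the log2 scale, and 7.97% of genes had a smaller one. Nadsyn1, the synthetase that amidates nicotinic acid adenine dinucleotide to NAD in the last step of the de novo and Preiss-Handler routes, stood at 0.990, 1.07 and 0.852 in controls and at 0.943, 0.875 and 0.939 in treated rats. The lowest of the 6 values belonged to corn oil replicate 3, and the 3 treated values lay inside the control range. Its difference was -0.074 (SE 0.11, limma adjusted p = 0.808), with a treated level between 0.789 and 1.14 of control by the 95% interval.

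Naprt, the phosphoribosyltransferase that starts the Preiss-Handler route from nicotinic acid, spread widely in both groups. It stood at 20.7, 25.1 and 33.0 in controls and at 29.2, 38.8 and 23.2 in treated rats. The lowest value was a control and the highest a treated rat, but the ranges overlapped over most of their length. The difference was 0.21 (SE 0.24, limma adjusted p = 0.747), and the interval of the treated level, 0.769 to 1.73 of control, was the widest among the 9 representative probes. The within-group SD was 0.35 on the log2 scale, larger than that of 87.2% of genes. Leaving out single rats moved the difference between 0.016 (without treated replicate 2) and 0.38 (without corn oil replicate 3, and again without treated replicate 3, which is the value within slide 1), so its size rests on which rats are counted.

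Of the salvage enzymes, neither separated the groups. Nampt, the rate-limiting enzyme that rebuilds NAD from nicotinamide, stood at 2.47, 2.65 and 2.37 in controls and at 2.12, 3.39 and 3.39 in treated rats on its brighter probe A_42_P570241. Treated replicates 2 and 3 lay above all controls and treated replicate 1 below all of them. The difference was 0.21 (SE 0.20, limma adjusted p = 0.676). Without treated replicate 1 it was 0.44 (limma adjusted p = 0.301), and without either of the other treated rats it was 0.10, which for treated replicate 3 is also the value within slide 1. The dimmer Nampt probe, A_43_P18467, showed the same order within the treated group, with 0.179, 0.238 and 0.284 against 0.186, 0.234 and 0.243 in controls, and a difference of 0.066. The shifts of these probes differed by 0.15 (95% interval -0.19 to 0.48, limma adjusted p = 0.875 over 9801 probe pairs).

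Nmrk1, the kinase that phosphorylates nicotinamide riboside, stood at 1.38, 1.46 and 1.59 in controls and at 2.22, 1.50 and 1.61 in treated rats on probe A_42_P622661. Treated replicate 1 was the highest of the 6, treated replicate 3 lay just above the controls and treated replicate 2 among them. The difference was 0.25 (SE 0.16, limma adjusted p = 0.560) and came to 0.076 without treated replicate 1. On the dimmer probe A_64_P113875 that rat did not stand out: the values were 0.196, 0.108 and 0.168 in controls and 0.171, 0.149 and 0.124 in treated rats, with a difference of -0.058. The difference between the shifts of the 2 Nmrk1 probes was 0.31 (95% interval -0.30 to 0.91, limma adjusted p = 0.839), so the opposite signs were within the error.

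**Figure D2:**
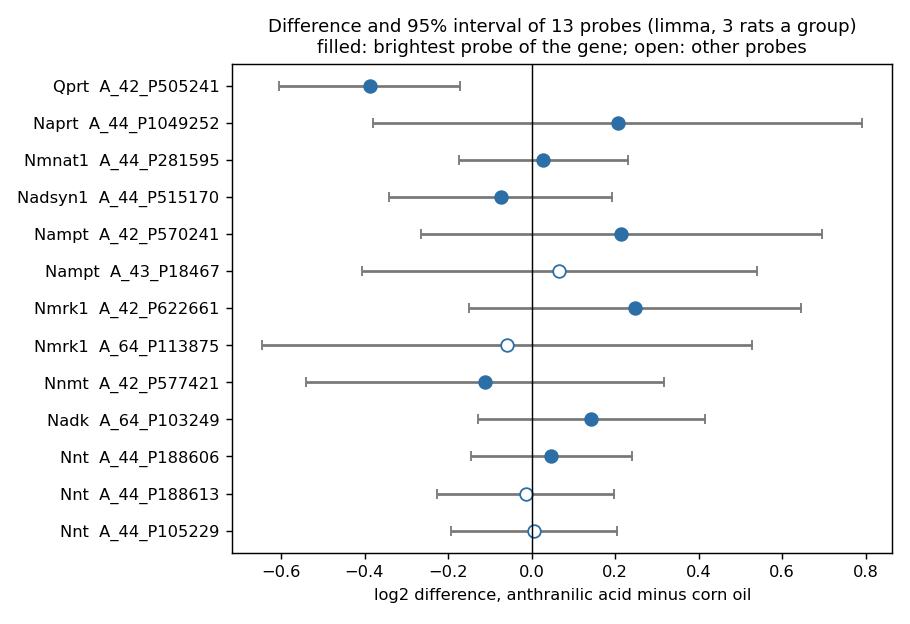
Log2 difference, anthranilic acid minus corn oil (horizontal axis), of the 13 probes with 95% intervals from limma, 3 rats a group; filled points are the brightest probe of each gene and open points its other probes. The interval of Qprt (-0.60 to -0.17) lies below 0, and those of the other 12 probes include 0.

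Nnmt, which methylates nicotinamide with S-adenosylmethionine and so removes it from salvage, stood at 22.7, 34.3 and 33.4 in controls and at 29.2, 28.1 and 25.2 in treated rats. The treated rats lay between corn oil replicate 1 and the other controls. The difference was -0.11 (SE 0.18, limma adjusted p = 0.823). It depended on corn oil replicate 1, without which it was -0.30 (limma adjusted p = 0.589), whereas without corn oil replicates 2 and 3 it was -0.0050 and -0.026. Within slide 1 it was -0.051. The within-group SD of Nnmt was larger in controls, 0.33 on the log2 scale against 0.11 in treated rats, a difference in spread that was not tested.

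Nadk, the kinase that turns NAD into NADP, stood at 6.59, 6.28 and 6.50 in controls and at 6.30, 8.09 and 7.11 in treated rats. Treated replicates 2 and 3 lay above the controls and treated replicate 1 among them, the same rat that was lowest for Nampt. The difference was 0.14 (SE 0.11, limma adjusted p = 0.621), from 0.052 without treated replicate 2 to 0.23 without treated replicate 1. Nnt, the transhydrogenase of the inner mitochondrial membrane that makes NADPH from NADH, was the steadiest of the 9 genes. Its brightest probe, A_44_P188606, stood at 13.4, 12.9 and 13.9 in controls and at 14.0, 13.5 and 14.1 in treated rats, with a difference of 0.047 (SE 0.08, limma adjusted p = 0.834) and a treated level between 0.904 and 1.18 of control by the 95% interval. Only 3.25% of genes had a smaller within-group SD. The other Nnt probes gave -0.014 and 0.0061, and none of the 3 pairs of Nnt probes differed in shift (limma adjusted p from 0.914 to 0.981).

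**Figure D3:**
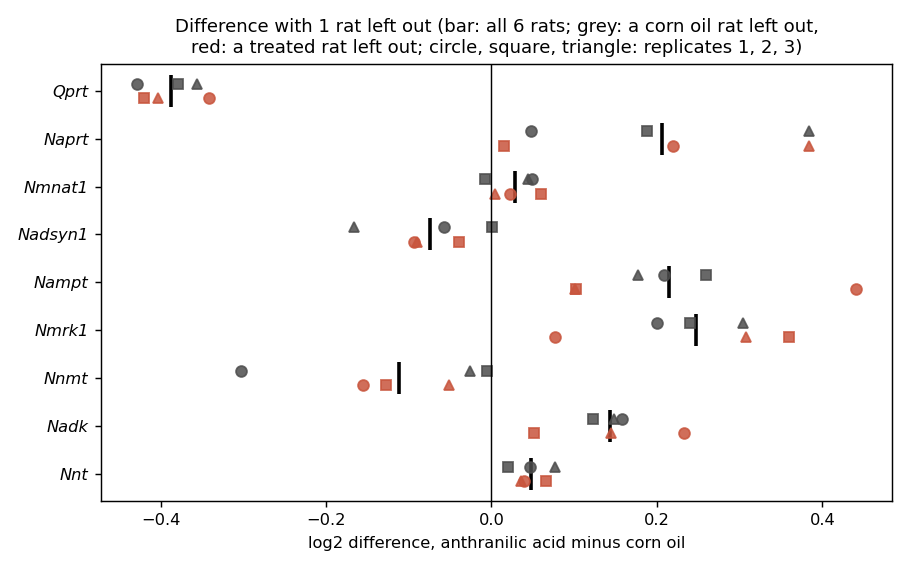
Log2 difference, anthranilic acid minus corn oil (horizontal axis), of the 9 genes with all 6 rats (black bar) and with each rat left out in turn (grey for a corn oil rat, red for a treated rat; circle, square and triangle for replicates 1, 2 and 3). Qprt stays between -0.43 and -0.34, whereas Nampt runs from 0.10 to 0.44 and Naprt from 0.016 to 0.38.

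Which genes separated the groups also changed with the rats counted. Leaving out a rat cannot make separate groups overlap. Qprt separated them with all 6 rats, and so had to with each rat left out. Without corn oil replicate 3, Nadsyn1, Nmrk1 and Nnt joined it, against 34.5% of all genes. Without treated replicate 1, Nampt and Nadk did so, against 32.5%, and without treated replicate 2, Nmrk1 and Nnt, against 29.7%. Nnmt separated the groups without corn oil replicate 1, against 27.5%. With 5 rats the share of all genes that separated, which can only rise when a rat is left out, was from 27.3% to 34.5%.

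The genes whose values over the 6 arrays were most like those of Qprt were Vxn (r = 0.996), Ubfd1 (r = 0.994) and Orai3 (r = 0.993), where Orai3 is a subunit of a store-operated calcium channel. The groups did not overlap for any of them, with differences of -1.33, -0.26 and -0.36 and limma adjusted p from 0.169 to 0.332. With normexp background correction the Vxn difference was -0.74. A correlation over 6 arrays in 2 groups mostly ranks genes that share the group difference, and 37 genes reached r = 0.95 or more.

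Genes next to the set in NAD metabolism were described from 5 further lists, none of whose members passed over all probes. Of the 8 genes of the kynurenine route, which supplies quinolinic acid to Qprt, 6 were measured. Their median difference was 0.24, with 4 above 0 and 2 below, and 3 had an unadjusted limma p under 0.05, all higher, against 5.47% of all genes. Kmo, which hydroxylates kynurenine towards quinolinic acid, stood at 4.65, 4.93 and 4.30 in controls and at 6.13, 7.32 and 5.94 in treated rats. Its difference was 0.48 (SE 0.11, limma adjusted p = 0.257), opposite in sign to that of Qprt on the same route. Tdo2, the dioxygenase that opens tryptophan breakdown in liver, stood at 50.9, 59.8 and 62.4 in controls and at 67.7, 82.8 and 81.0 in treated rats, a difference of 0.42 (SE 0.13, limma adjusted p = 0.323). For both genes, 2 of the 6 measured, each treated rat was above each control. The same held for 1094 of the 10257 genes with a tested probe. Acmsd, whose enzyme diverts the pathway away from quinolinic acid, was at 0.61 (SE 0.22, limma adjusted p = 0.384) with 1 treated rat inside the control range. Haao, which makes the precursor of quinolinic acid, was at 0.053 and Kynu, the kynureninase that releases anthranilic acid, at -0.032.

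Of 11 related enzymes of NAD and NADP synthesis and turnover, 8 were measured, with a median of 0.068, 6 above 0, 2 below and 0 at an unadjusted limma p under 0.05, against 11.6% of all genes. Aspdh, named for an aspartate dehydrogenase activity, was at 0.23 (SE 0.10, limma adjusted p = 0.423), with each treated rat above each control. Nmnat2, the adenylyltransferase best known from neurons, was well above background on all 3 control arrays and on no treated array. It passed the filter on dim probes only through the controls. Its signals were 0.0576, 0.0595 and 0.0680 in controls and 0.0618, 0.0505 and 0.0469 in treated rats, so the groups overlapped, and no fold is drawn from them. Aox1, the aldehyde oxidase that oxidises methylated nicotinamide, ranged from 67.0 to 269 in controls and from 229 to 249 in treated rats, so its difference of 0.76 (SE 0.47, limma adjusted p = 0.533) was within the spread of the controls, and it came to 0.22 without corn oil replicate 2 and to 1.23 without corn oil replicate 1 (limma adjusted p = 0.804 and 0.524). Transporters were measured for 4 of 7 genes, with a median of -0.10. The monocarboxylate carrier Slc16a1 was at -0.27 (SE 0.08, limma adjusted p = 0.336) with no overlap between groups.

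Enzymes that split NAD were measured for 13 of 18 genes, with a median of 0.035, 7 above 0 and 6 below. At an unadjusted limma p under 0.05 there were 1 higher and 1 lower, against 5.47% and 6.15% of all genes. Bst1, a surface enzyme that hydrolyses NAD and also marks B cell lineage and stromal cells, stood at 0.208, 0.159 and 0.210 in controls and at 0.272, 0.364 and 0.364 in treated rats, a difference of 0.79 (SE 0.17, limma adjusted p = 0.223). Of lymphocyte markers, 5 of 6 measured were above 0, with the B cell gene Cd79b at 1.11. None passed over all probes (lowest limma adjusted p = 0.186). Their summed signal ran from 1.91 to 2.17 in controls and stood at 3.35, 2.58 and 3.06 in treated replicates 1, 2 and 3. The sum was highest in treated replicate 1, the treated rat with the lowest Bst1. Cd79b stood at 0.306, 0.402 and 0.535 in treated replicates 1, 2 and 3, so it was lowest in that rat too. The lymphocyte markers Cd3e and Ms4a1 were not tested. The part of lymphocytes in the Bst1 value was not tested. Parp3, a polymerase of DNA repair, was at -0.29 (SE 0.10, limma adjusted p = 0.370). Cd38, the main NAD hydrolase of many tissues, was at 0.054, Parp1 at 0.16 and the mitochondrial deacetylase Sirt3 at 0.12.

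Makers of NADPH other than Nnt were measured for 4 of 6 genes, all above 0, with a median of 0.31. Idh1, the cytosolic isocitrate dehydrogenase, stood at 60.4, 60.4 and 64.4 in controls and at 67.9, 86.8 and 79.7 in treated rats, a difference of 0.33 (SE 0.11, limma adjusted p = 0.360) with no overlap between groups. Idh2, its mitochondrial counterpart, was at 0.38 (SE 0.21, limma adjusted p = 0.494) with groups that overlapped, and at 0.23 within slide 1.

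**Figure D4:**
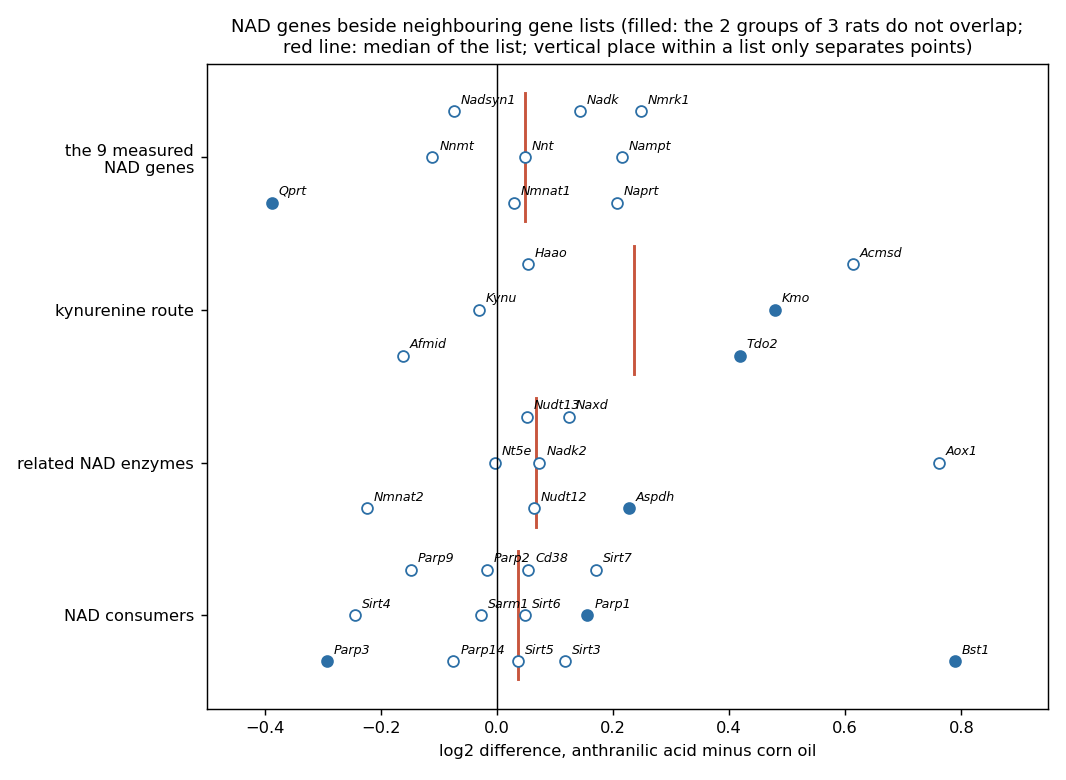
Log2 difference, anthranilic acid minus corn oil (horizontal axis), of the 9 measured NAD genes and of the measured genes of 3 neighbouring lists (kynurenine route, related NAD enzymes and NAD consumers); filled points are genes whose 2 groups of 3 rats do not overlap, and red lines are list medians. Qprt (-0.39) is the lowest point plotted, while Kmo (0.48), Tdo2 (0.42) and Acmsd (0.61) of the kynurenine route lie above 0.

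Among markers of other liver cells, none passed over all probes. The median over the measured markers was -0.17 for Kupffer cells and macrophages (8 of 8 measured, from -0.40 to 0.53). For neutrophils it was 0.52 (3 of 5, from 0.26 to 0.60) and for endothelial cells -0.013 (4 of 6, from -0.34 to 0.21). For stellate cells and matrix it was 0.033 (8 of 8, from -0.10 to 0.25). Cholangiocyte markers had a median of 0.35 (4 of 5) but ran from -0.53 for Epcam to 0.60 for Krt19. Erythroid markers had a median of 0.33 (3 of 4, from 0.25 to 0.56). Of the 4 fat markers only Fabp4 was tested, at -0.59, and Adipoq, Plin1 and Lep were not. The summed neutrophil signal ran from 1.99 to 2.89 in controls and stood at 4.11, 3.66 and 2.20 in treated replicates 1, 2 and 3. It was highest in treated replicate 1, as were S100a9 (2.23) and S100a8 (1.28), whereas Camp was highest in treated replicate 2 (0.635). Nampt, a gene that neutrophils also express, was lowest in treated replicate 1. The part of neutrophils in the Nampt value was not tested.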

How the data were processed

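Liver RNA of 3 corn oil and 3 anthranilic acid rats was measured on 1 array each, and the replicates are separate animals per the labels. Per the file headers, the deposited spot intensity values came from Agilent Feature Extraction 10.7.1.1 (10.7 per the submitters' processing notes), which subtracts background and local trends within an array; no scaling across arrays is recorded there. A second deposited file of the authors holds a ratio of that intensity to 1 value per array, within 0.0355% to 0.126% of its 75th percentile, and served as an alternative. Its column medians ran from 0.0887 to 0.0976, and the sources used here do not say how that divisor was set.

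From the log2 of the processed intensity, the 75th percentile of each array's non-control probes was taken off. Control spots and 14 outlier spots of 369942 were left out. A probe was tested if well above background on all arrays of a group with at least 2 unflagged spots in each group (33428 probes). Accessions matched a symbol in RefSeq's GRCr8 gene table for 27460 of 61657 probes, and the tested probe of highest mean log2 signal stood for its gene. The headers name build rn4, so probe coordinates are not given. Groups were compared with limma 3.58.1 (lmFit and eBayes in R 4.3.3; two-sided tests with 4 residual degrees of freedom and 2.30 from the prior), with Benjamini-Hochberg adjustment over all tested probes at 0.05; the fit was tested on simulated data. All p-values, standard errors and intervals come from such fits, and the number of arrays limits their precision.

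The members and lists were chosen with earlier results of these data known. The rule names every member, the 2 genes of each list with the smallest p, and the 3 genes most correlated with the member of smallest p; other genes named were chosen after their values were seen, and some genes of the lists are not reported here. Alternatives changed background correction, scaling, filter, blocks, variance model, array weights, the probe that represents a gene, and the rats counted; for genes outside the set they were applied after the data were seen.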

Additional observations from a re-analysis of the deposited data

How the results depend on the processing

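No member was called in any of the 17 alternatives, and no pair of probes of a member in the 16 that keep single probes. The 157 member differences under an alternative kept their sign in 153 cases and reversed in 4, none of them past the threshold: Nmnat1 (-0.0083 to 0.060 with 1 rat left out), Nadsyn1 (-0.17 to 0.00016, likewise), Nmrk1 on its dimmer probe (-0.058) and Nnt on its second probe (-0.014). Leaving out 1 rat gave 1 to 4 members with groups that do not overlap, against 1, a count that leaving out a rat cannot lower. The 18 genes outside the set that were checked (in each neighbouring list the 3 of smallest p, and the 3 most like Qprt) kept their sign and stayed uncalled in all 305 values, alternatives added after seeing the data. Both totals include settings that cannot move a difference. The filters, the replicate block and the variance model change only its error and p-values. The mean over probes leaves a gene with 1 tested probe unchanged, and the slide block repeats the fit without treated replicate 3. Counts over all probes moved more: against 11 called probes there were 50 with normexp, 45 with a trended robust variance, 29 with array weights, 6 with slide as a block, 2 without the filter on dim probes, 2 with only probes above background on all arrays, and 2 to 8 with 1 rat left out. Called genes, 0 in the main analysis (1192 at unadjusted p under 0.05), were 8 with normexp, 4 with a trended robust variance, 2 with array weights, 1 with slide as a block and 0 to 2 with 1 rat left out. For rats with the same replicate number, r of deviations from the group means was 0.0724, -0.0507 and -0.043. For rats with different numbers it ran from -0.129 to 0.16. With 3 rats a group these values cannot decide whether rats with the same number share more than the number. With the replicate number as a block, 2 probes and 0 genes were called, and Qprt was at -0.39 (limma adjusted p = 0.407). The block changed no call among the members. The causes were not tested. With 3 rats a group, the 95% intervals of the brightest probes of the members other than Qprt span ratios from 0.688 to 1.73, and shifts within an interval could not be told from 0.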
